A study of Mus musculus with 4 samples.

Results

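Histone genes were examined in poly(A)-selected RNA of NIH/3T3 cells, an immortalised mouse fibroblast line. Members were the protein-coding transcripts whose gene symbol carries a replication-dependent name (Hist1h to Hist4h) or a variant name (H2af, H3f3a, H3f3b or H1f). The rule gave 75 transcripts of 64 genes, out of 34200 transcripts of 21945 genes in the table. Of these, 57 transcripts of 54 genes were replication-dependent and 18 transcripts of 10 genes were variants. KD cells received 2 siRNAs against *Setd2*, the methyltransferase that places H3K36me3, and WT cells received a Scrambled siRNA, each at a final 10 nM, with RNA taken after 48 h. There were 2 KD and 2 WT libraries, made with a stranded mRNA kit, and nothing in the labels limits the line to a single clone. The values used are the authors' means over all 4 libraries, so each level below mixes KD and WT cells and no difference between them was measured. No value of a single library was used, and the depth of each library is therefore unknown.

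Core histones H2A, H2B, H3 and H4 wrap DNA into nucleosomes, and linker histone H1 binds where DNA enters and leaves them. Replication-dependent histone genes lie in clusters, mostly lack introns and are transcribed in S phase. Their mRNAs normally end shortly after a conserved stem-loop bound by SLBP, without a poly(A) tail, whereas variant histone mRNAs are mostly spliced, polyadenylated and used throughout the cell cycle. Poly(A) selection keeps RNA with a tail, so the levels are no measure of total histone mRNA, and how much RNA without a tail was carried along was not measured. In a bulk culture, fewer cells in S phase and less histone RNA in each cell cannot be told apart.

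The annotated 3′ ends show the difference between the kinds of gene. A stem-loop was searched within 100 bases after the stop codon, as 6-base arms that pair perfectly and start with GG around a 4-base loop of TTNN. Of the 45 replication-dependent transcripts with at least 16 annotated bases of 3′ UTR, 38 held it (84.4%), against 44 of 25278 protein-coding transcripts tested (0.174%). It began 21 to 58 bases after the stop codon, with a median of 31. The remaining 12 replication-dependent transcripts have almost no annotated 3′ UTR, so nothing could be found there. The stem-loops of the 39 histone transcripts fell into 7 sequences, printed with the arms in capitals and the loop in lower case because they carry the 3′ end signal of this family.

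*Hist1h1c*, chr13:23739512-23739527, plus strand: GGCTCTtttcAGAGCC
*Hist1h2bk*, chr13:22036300-22036315, plus strand: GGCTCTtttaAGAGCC
*Hist2h2ac*, chr3:96220418-96220433, minus strand: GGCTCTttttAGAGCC
*Hist1h4d*, chr13:23581950-23581965, plus strand: GGCCCTtttcAGGGCC
*Hist1h4i*, chr13:22040966-22040981, minus strand: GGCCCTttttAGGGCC
*Hist1h4j*, chr13:21735437-21735452, plus strand: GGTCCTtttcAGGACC
*H2afx*, chr9:44335240-44335255, plus strand: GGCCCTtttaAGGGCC

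Positions are of GRCm38, in the 3′ UTR of each transcript, and the sequences came from GENCODE M21. The sequence of *Hist1h1c* was found in 23 transcripts of the H1, H2A, H2B and H3 classes. That of *Hist1h2bk* was found in 5 transcripts of H2B and H3, and that of *Hist2h2ac* in 1. All 9 stem-loops of H4 transcripts had other arms, with 6 transcripts like *Hist1h4d*, 2 like *Hist1h4i* and 1 like *Hist1h4j*. Among the variants, 1 of 18 transcripts held a stem-loop, that of *H2afx*, which encodes the H2A form phosphorylated at DNA breaks. Its arms were those of most H4 stem-loops, and its whole sequence occurred in no other histone transcript. Outside the histones the same search matched *Bicra*, *Cdc40*, *Rps6ka2*, *Tal1* and *Ttc14*, named after their values were seen, 5 of 25215 transcripts.

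Variant genes held nearly all of the histone signal. Levels are given in normalised estimated counts, as the authors' mean on a log scale turned back to counts, and per kilobase of annotated transcript wherever genes are compared. Replication-dependent genes took 1.76% of the summed histone level and 2.63% of the sum per kilobase. With 200 bases taken off each length the share per kilobase was 3.23%, and over transcripts at 100 counts or more the share of the level was 0.958%. The median level per kilobase was 26.9 for the 57 replication-dependent transcripts, 958 for the 18 variant transcripts and 135 for all protein-coding transcripts. Of the replication-dependent transcripts 4 lay above that last median, and of the variant transcripts 15 did. Within classes, the summed level per kilobase of variants over replication-dependent genes was 26.5-fold for H1, 80.7-fold for H2A and 160-fold for H3. H2B and H4 have no variant gene under the rule, and their whole signal came from replication-dependent genes. None of these ratios has a test, since transcripts are not replicates of a condition.

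**Figure D1:**
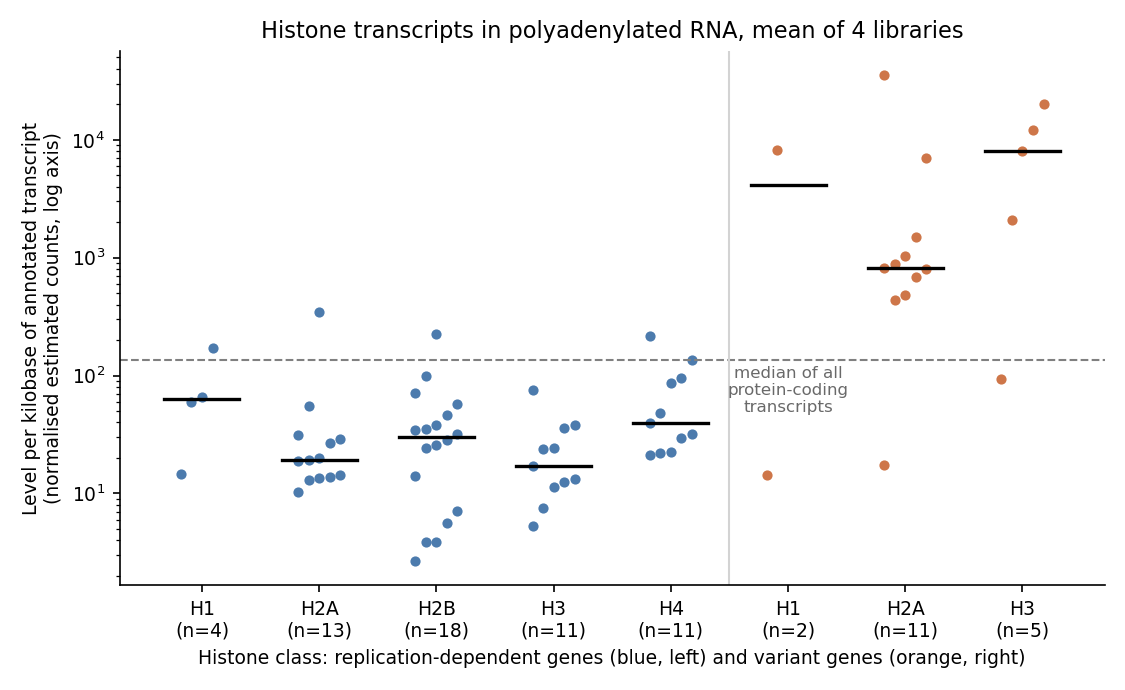
Level per kilobase of annotated transcript (normalised estimated counts, log axis) of each histone transcript by class, as the authors' mean of the 4 libraries. Points are transcripts, black bars are class medians and the dashed line is the median of all protein-coding transcripts, 135. Most replication-dependent transcripts (blue) sit under the line and most variant transcripts (orange) above it.

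*H2afz* (ENSMUSG00000037894.13), which encodes H2A.Z, a variant of promoter and enhancer nucleosomes, had the highest level per kilobase of all histone genes, 43034 summed over its 3 transcripts. That was 42.1% of the histone sum per kilobase. *H3f3a* and *H3f3b* encode the same replacement H3, which is used throughout the cell cycle. Their levels per kilobase were 22308 and 20028, together with *H2afz* the top of the family. *H1f0*, a linker histone that accumulates in non-dividing cells, followed at 8262 per kilobase and made up 96.2% of the H1 class. The remaining linker variant, *H1fx*, was at 14.5 per kilobase, below the median of protein-coding transcripts.

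The other H2A variants formed a middle group. *H2afj*, which encodes H2A.J, was at 1521 per kilobase, and *H2afv*, which encodes a second H2A.Z protein, was at 1473. The macroH2A genes *H2afy* and *H2afy2*, whose proteins carry a large extra domain and are linked to silent chromatin, were at 1292 and 884 per kilobase. *H2afx* was at 812 per kilobase, the lowest of the H2A variants. Even that value is above the highest replication-dependent transcript, which was at 343 per kilobase.

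Several variant genes were split over transcripts. For *H2afz*, ENSMUST00000041045.13 held 82.2% of the gene's level per kilobase, and ENSMUST00000174561.7 held 16.1%. For *H3f3a*, the shares per kilobase were 54.5% for ENSMUST00000081026.10, 36.2% for ENSMUST00000162814.7 and 9.30% for ENSMUST00000161308.7, the transcript with the longest 3′ UTR, 2245 bases. The annotated 3′ UTRs of the others are 380 and 53 bases long. In *H3f3b*, ENSMUST00000016703.7 held 99.5% of the level per kilobase. The shares of *H2afy* were 62.3% and 37.7%, those of *H2afv* 70.04% and 29.96%, and those of *H2afj* 98.9% and 1.14%.

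Replication-dependent genes were measurable but low. Of 57 transcripts, 8 reached 100 normalised estimated counts and 17 were under 10. With a floor of 50 the number was 13, and with a floor of 200 it was 2. Summed per gene it remained 8. In the whole table, 65.9% of protein-coding transcripts reached 100, and 2981 of 26536 were under 10.

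Linker histone H1 genes had the highest median of the replication-dependent classes, 62.9 per kilobase over 4 transcripts. Their sum per kilobase, 313, was below those of H2B, H4 and H2A, at 755, 748 and 608. *Hist1h1c* (ENSMUSG00000036181.2, chr13:23738808-23740367) led with a level of 269 normalised estimated counts, or 172 per kilobase. *Hist1h1e* was at 59.9 per kilobase and *Hist1h1b*, the lowest in counts with 48.9, was at 65.8 per kilobase. *Hist1h1d* was at 14.6 per kilobase although its level was 109 counts. Its annotated transcript is 7425 bases long, with 4884 of them after the stem-loop, so the division by length decides its place in the order.

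In the H2A class, *Hist2h2aa1* (ENSMUSG00000064220.6, chr3:96245497-96246082) stood apart, with 201 normalised estimated counts and 343 per kilobase. The median of the 13 H2A transcripts was 19.1 per kilobase. *Hist1h2ac* and *Hist3h2a*, next in counts at 34.4 and 29.2, were at 13.9 and 13.6 per kilobase. The lowest, *Hist1h2ab*, was at 10.3 per kilobase. All of these genes encode H2A proteins that differ by few residues.

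The H2B class had no variant gene to set it against. *Hist1h2bg* (chr13:23571396-23572013) was highest at 227 per kilobase, with 140 normalised estimated counts. *Hist2h2be*, with 185 counts, was at 70.7 per kilobase, and *Hist1h2bc*, with 114 counts, was at 98.3. Both of these carry a 3′ UTR without a stem-loop in the annotation used. The lowest in counts were *Hist1h2bq* and ENSMUST00000110476.4 of *Hist1h2br*, which have the same sequence and the same level, 1.46 counts or 3.84 per kilobase. Per kilobase, ENSMUST00000051091.4 of *Hist1h2be* was lower still, at 2.67. The *Hist1h2bq* and *Hist1h2br* values are therefore a single measurement divided over a pair of genes.

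H3 was the lowest class, with a median of 17.0 per kilobase over 11 transcripts and none at 100 counts. *Hist2h3c2* was highest at 76.1 per kilobase, followed by *Hist1h3d* at 38.23 and *Hist1h3g* at 35.6. The lowest was *Hist2h3b*, at 5.29 per kilobase. The *H3f3a* and *H3f3b* genes together took 99.4% of the H3 sum per kilobase, so nearly all of the H3 signal came from the replacement form.

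H4 transcripts had a median of 39.6 per kilobase over 11 transcripts. *Hist1h4i* (ENSMUSG00000060639.5, chr13:22040636-22041362) led with 158 normalised estimated counts and 217 per kilobase. *Hist1h4d* and *Hist2h4*, next in counts at 98.7 and 78.5, were at 86.8 and 48.1 per kilobase. *Hist1h4n* at 134 and *Hist1h4h* at 95.1 per kilobase, named after their values were seen, were above both. The lowest in counts was *Hist1h4k* with 9.93, or 31.8 per kilobase. All H4 genes encode nearly the same protein, and the class has no variant under the rule.

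A member had to be in the table to be counted, and the filter that chose its rows is not given in the sources used here. The annotation has 67 protein-coding genes with a replication-dependent name, the 54 listed and 13 not in the table used here. For variant names these numbers are 10 and 5. Whether a filter on low values left them out is not known. By position, 44 of the replication-dependent genes lie on chromosome 13, 8 on chromosome 3 and 1 each on chromosomes 6 and 11. The median level per kilobase was 43.1 for the 8 transcripts of chromosome 3 and 25.9 for the 47 of chromosome 13.

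Replication-dependent transcripts differed in how far the annotation runs past the stem-loop. In 18 transcripts it ends within 100 bases of the stem-loop. In 20 it runs on for more than 100 bases, in 7 there is a 3′ UTR without a stem-loop, and in 12 the annotation stops at or within a base of the stop codon. This grouping was made after the values were seen and has no test. The median level was 47.5 normalised estimated counts where the annotation runs on and 11.4 where it ends near the stem-loop. Per kilobase the medians were 25.3 and 24.4. The median was 29.4 for the transcripts without a 3′ UTR and 35.6 for those with a 3′ UTR but no stem-loop. Across the 57 transcripts, which are not independent replicates, the rank correlation of length with level was 0.53 and that with level per kilobase was 0.04. The higher counts of the longer annotations were thus not matched by higher values per kilobase. Transcripts that run on held 57.2% of the replication-dependent level, and 41.7% per kilobase.

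A poly(A) signal, AATAAA or ATTAAA in the last 50 bases, is the usual mark of a cleaved and tailed end. It was present in 14 of 57 replication-dependent transcripts (24.6%), in 10 of 18 variant transcripts (55.6%) and in 68.8% of all protein-coding transcripts. The 57 include the 12 with almost no annotated 3′ UTR, none of which held it. Over transcripts with at least 16 annotated bases of 3′ UTR the shares were 14 of 45 (31.1%), 10 of 18 (55.6%) and 70.8%. Of the 14, 10 also held the stem-loop. Examples are printed with the signal in capitals, since they show histone transcripts whose annotated end carries the general signal.

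*Hist1h1c*, 3′ UTR, chr13:23740330-23740359, plus strand: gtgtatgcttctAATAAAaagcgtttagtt
*Hist1h4i*, 3′ UTR, chr13:22040639-22040668, minus strand: ggttctgtttacATTAAAagtattctatgc
*Hist2h2be*, 3′ UTR, chr3:96223705-96223734, plus strand: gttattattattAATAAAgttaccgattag
*H2afx*, 3′ UTR, chr9:44336031-44336060, plus strand: tgggctaattttATTAAAggatcgtttggt

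In *Hist1h1c* the signal begins 814 bases past the stem-loop and the annotated transcript ends at 840 bases. In *Hist1h4i* these distances are 309 and 330 bases, and in *H2afx* 787 and 822 bases, so the annotation of this variant gene holds both a stem-loop and a poly(A) signal. The median level per kilobase was 30.3 for the 14 replication-dependent transcripts with a signal and 25.9 for the 43 without. Those 43 include the 12 with almost no annotated 3′ UTR. The highest transcript per kilobase, *Hist2h2aa1*, has no signal and ends 35 bases after its stem-loop in the annotation. Which end the RNA molecules had was not measured.

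**Figure D2:**
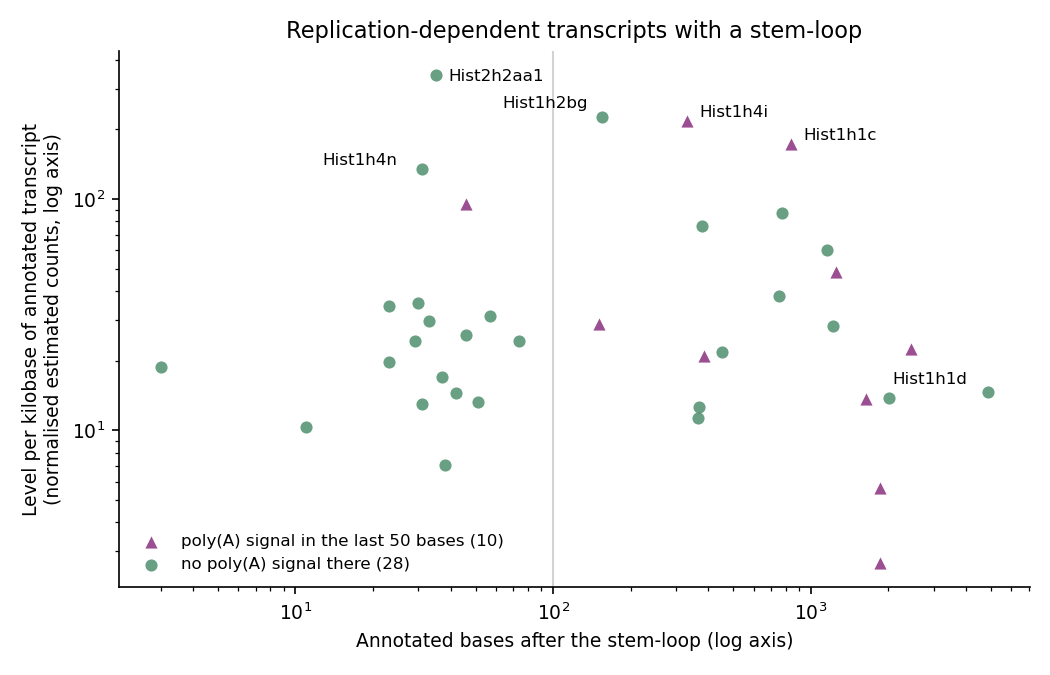
Level per kilobase of annotated transcript (normalised estimated counts, log axis) against the annotated bases after the stem-loop (log axis) for the 38 replication-dependent transcripts with a stem-loop. Triangles have a poly(A) signal in the last 50 bases (10) and circles have none (28), and the grey line is at 100 bases. High and low values per kilobase occur on both sides of the line, with *Hist2h2aa1* at 343 on the left and *Hist1h2bg* at 227 on the right.

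Introns separated the kinds of gene as well. Of the replication-dependent transcripts 52 of 57 have a single exon (91.2%), against 4 of 18 variant transcripts and 1.97% of all protein-coding transcripts. The 5 spliced ones belong to *Hist1h2bc*, *Hist1h2be*, *Hist1h2bp* and *Hist1h2br*, all H2B genes, and 4 of them carry a poly(A) signal. Their median level was 13.9 normalised estimated counts and 14.2 per kilobase. In *Hist1h2bp*, the spliced ENSMUST00000110473.2 had 14.2 per kilobase and the single-exon ENSMUST00000102982.1, which ends 38 bases after its stem-loop, had 7.12. In *Hist1h2br*, the spliced ENSMUST00000180288.1 had 31.8 per kilobase and the single-exon form 3.84. Nearly all of the sequence of both forms also occurs in *Hist1h2bq*, so which gene gave these reads is uncertain. The transcripts of *Hist1h2be*, both spliced, had 5.61 and 2.67. The standard deviation of the read assignment, in log2 units, was 1.31 and 1.02 in *Hist1h2br* and 1.23 and 1.81 in *Hist1h2be*. In *Hist1h2bp* it was 0.53 and 1.13. Whether the forms of these genes differ beyond such deviations was not tested.

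How well single genes can be measured depends on the sequence they share with other genes. Each transcript was cut into words of 31 bases, and a word was counted as its own if no other annotated gene holds it on either strand. The median share of own words was 41.1% in replication-dependent and 83.7% in variant transcripts. It was under 20% in 17 replication-dependent transcripts and in 2 variant transcripts, both of *H3f3a*, with 15.2% for ENSMUST00000081026.10 and 19.2% for ENSMUST00000162814.7. The main transcript of *H2afz* had 36.7%, so highly expressed variant genes share words with other genes as well. In 5 replication-dependent transcripts the share was 0. These 5 were *Hist1h2bq*, a transcript of *Hist1h2br*, *Hist2h2aa1*, *Hist2h2bb* and *Hist2h3b*. Some of the sharing is with genes annotated over the same place, a division made after the values were seen. Without words shared only with such genes, the medians were 44.8% and 85.3%, and 16 replication-dependent and 0 variant transcripts were under 20%. Then *Hist2h2bb*, whose words all lie in the antisense gene *Gm20628* over the same place, had 92.0% own words, and *Hist2h3b*, under the same gene, had 19.4%. *Hist2h2aa1*, the highest of the replication-dependent genes per kilobase, lies under the antisense gene *Gm20633*, which holds all of its words. Most of them also occur in genes elsewhere, since its share rose only to 3.597%, so which gene gave its reads is uncertain. By replication-dependent class, over all genes compared, the median share was 92.3% for H1 and 64.4% for H4. It was 38.1% for H3, 33.97% for H2B and 31.7% for H2A. Among these classes, H1 transcripts thus had the most sequence of their own.

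The authors' variance of the read assignment, taken from repeated quantification of resampled reads and divided by the variance that counting alone would give, was above 2 in 20 of the 75 histone transcripts (26.7%). Among all protein-coding transcripts 50.1% were above 2. The median ratio was 1.25 for replication-dependent and 1.51 for variant transcripts, against 2.01 for all. The value for all includes genes with several tested transcripts, whereas most replication-dependent genes have 1. Over genes with 1 tested transcript the median, given with the processing, was below that of the replication-dependent transcripts. The lower histone values therefore do not show that histone reads were assigned better than those of comparable genes. The ratio was above 2 in 9 of the 19 transcripts with under 20% own words (47.4%) and in 11 of the 56 with more (19.6%). Across the 75 transcripts the rank correlation of own words with the ratio was -0.23. Own words are counted against other genes only, so sequence shared between transcripts of the same gene is not in this measure. Most of these 11 transcripts belong to genes with several tested transcripts. The ratio was highest, 81.7, for ENSMUST00000174561.7 of *H2afz*. Next were ENSMUST00000180288.1 of *Hist1h2br* at 33.3, with 0.163% own words, and ENSMUST00000203982.1 of *H2afj* at 21.3. Since the ratio is relative to counting, a high one at a high level can still be a small error. The standard deviation of the read assignment was 0.17 log2 units for this *H2afz* transcript, at 5628 counts, against 1.31 for that of *Hist1h2br* and 2.05 for that of *H2afj*, at 40.0 and 10.0 counts. The ratio was 1.43 for ENSMUST00000041045.13 and 1.95 for ENSMUST00000173790.7 of *H2afz*, and 0.98 for ENSMUST00000074556.6 of *H2afj*. For *H3f3a* it was 2.07, 1.55 and 1.67 for ENSMUST00000081026.10, ENSMUST00000162814.7 and ENSMUST00000161308.7. In *H3f3b* it was 1.00 for the main and 3.61 for the other transcript. It was 2.67 and 3.25 in *H2afy* and 1.46 and 1.35 in *H2afv*, each in the order of the shares. A ratio near 1 does not show that a gene was measured by itself, since *Hist2h2aa1*, with no own word, had a ratio of 1.00.

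**Figure D3:**
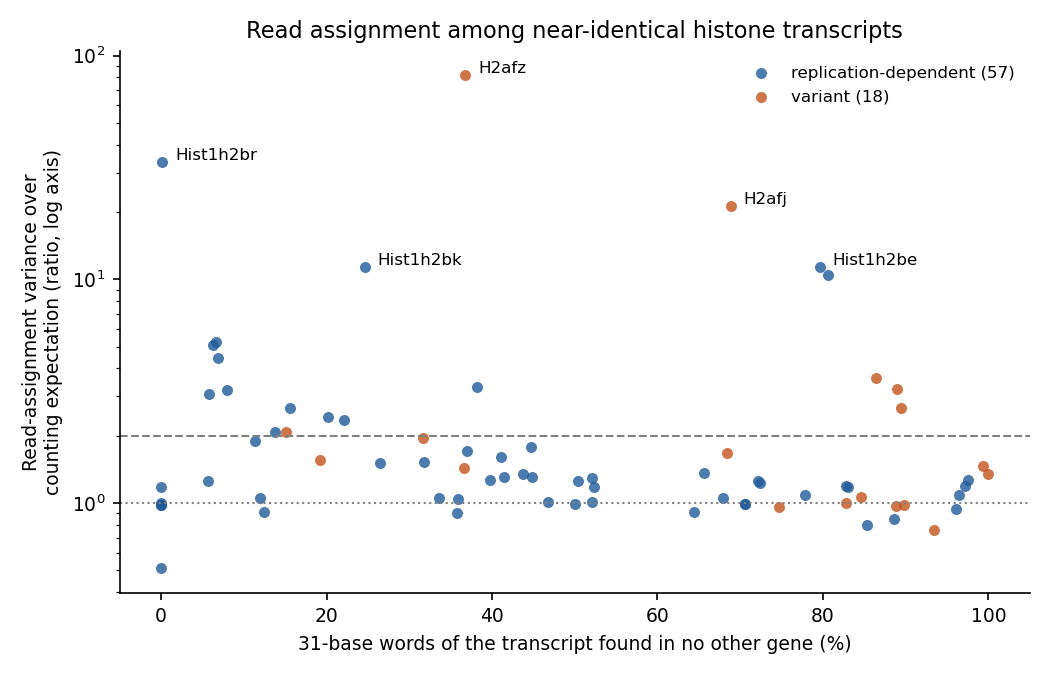
Read-assignment variance over the counting expectation (ratio, log axis) against the percent of 31-base words found in no other gene, for the 75 histone transcripts. Blue points are replication-dependent and orange points variant, the dotted line marks a ratio of 1 and the dashed line a ratio of 2. The highest points are transcripts of *H2afz* at 81.7 and *Hist1h2br* at 33.3.

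The spread over the 4 libraries was taken from the authors' variance and is given as a standard deviation in log2 units. It holds differences between KD and WT as well as those between libraries of a group, and these cannot be told apart in a value over all 4. The median spread was 0.59 for replication-dependent and 0.25 for variant transcripts, against 0.29 for all protein-coding transcripts. Low transcripts spread more throughout the table, and the rank correlation of level with spread was -0.66 across the 57 replication-dependent and -0.62 across all protein-coding transcripts. Of the replication-dependent transcripts 12 had a spread above 1 (21.1%), and of the protein-coding transcripts within the same range of levels 20.6% did. Those transcripts had a higher median level, 35.6 against 16.9 counts, so the shares are not matched on level. Against the median spread of protein-coding transcripts of like level, meaning the same bin of 0.5 log10 units of level, 26 of 57 replication-dependent and 11 of 18 variant transcripts lay above it.

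A spread above the 90th percentile of like level, which 10% of protein-coding transcripts have by construction, was found in 5 of 75 histone transcripts (6.67%). These were 2 of 57 replication-dependent transcripts, of *Hist1h2be* and *Hist1h2br*, and 3 of 18 variant transcripts, of *H2afj*, *H2afy* and *H2afz*. The largest spreads were 3.38 for ENSMUST00000203982.1 of *H2afj*, then 3.25 and 2.83 for the transcripts of *Hist1h2be*, ENSMUST00000091704.6 and ENSMUST00000051091.4. Their levels were 10.0, 13.9 and 6.70 normalised estimated counts, and their read-assignment ratios were 21.3, 10.5 and 11.3. In the same order, the authors' variance over the libraries was 2.70, 6.98 and 2.44 times the read-assignment variance. The part of read assignment in these spreads was not tested. In *H2afy*, ENSMUST00000016081.12 had a spread of 0.79 at 1647 counts, and the other transcript, ENSMUST00000045788.8, had 0.25 at 941 counts. Among the most abundant variant transcripts, the spread was 0.17 for the main transcript of *H2afz* and 0.19 for that of *H3f3b*, against a median of 0.18 for protein-coding transcripts of like level. ENSMUST00000081026.10 of *H3f3a* and *H1f0*, with 0.03 and 0.06, were below their like-level median of 0.19. ENSMUST00000162814.7 and ENSMUST00000161308.7 of *H3f3a*, with 0.28 and 0.22, were above theirs, 0.17, so the transcripts of this gene lay on both sides.

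By replication-dependent class, the median spread was 0.23 for H4, 0.53 for H2A, 0.55 for H1, 0.74 for H2B and 0.77 for H3. The classes also differed in level, with medians of 44.7, 10.6, 112, 15.7 and 10.5 counts in the same order. Protein-coding transcripts of the same level as each member had a median spread which, at the median member of each class, was 0.41, 0.55, 0.31, 0.55 and 0.55. Above the median of their like level lay 0 of 11 H4, 6 of 13 H2A, 4 of 4 H1, 9 of 18 H2B and 7 of 11 H3 transcripts, and no test of the classes was made. The authors' variance over the libraries was at the median 1.08 times the read-assignment variance in H4, 1.21 times in H2A, 2.32 times in H2B, 2.33 times in H3 and 16.5 times in H1. At the median this ratio was 1.14 times for protein-coding transcripts under 100 counts and 7.33 times for those at 100 or more. For protein-coding transcripts of like level it was, at the median member, 1.096 times for H4, H2B and H3, 1.19 times for H2A and 2.11 times for H1, so the H4 and H2A ratios were near those of other transcripts of their level. The linker genes *Hist1h1b*, *Hist1h1d*, *Hist1h1c* and *Hist1h1e* had spreads of 0.81, 0.59, 0.51 and 0.33, at 48.9 to 269 counts. Of the H4 genes within that range, *Hist1h4i*, *Hist2h4* and *Hist1h4d* had 0.09, 0.09 and 0.17, and *Hist4h4* and *Hist1h4n*, named after their values were seen, had 0.32 and 0.39, with variances 2.75 and 4.54 times those of the read assignment. The spread of *Hist1h4n* was thus above that of *Hist1h1e*. Of the other replication-dependent classes within that range, *Hist1h2bg* and *Hist2h2aa1* had 0.65 and 0.40, with variances 21.3 and 15.8 times those of the read assignment. *Hist1h2bc*, *Hist2h2be* and *Hist2h3c2* had 0.16, 0.13 and 0.07. Whether KD and WT differed in H1 transcripts was not tested.

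**Figure D4:**
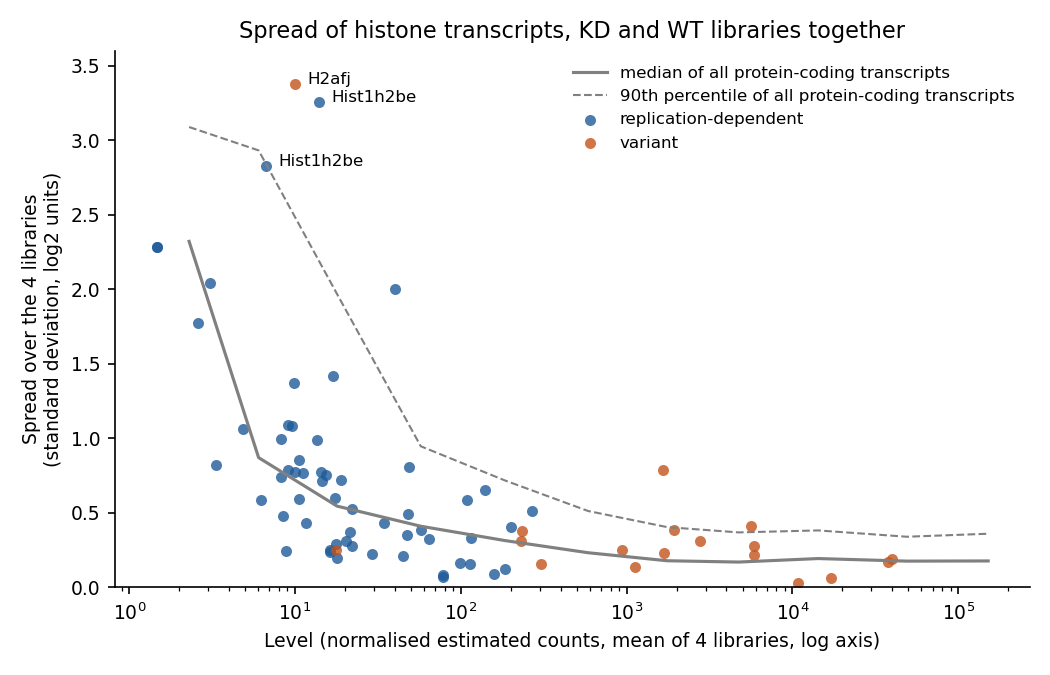
Spread over the 4 libraries (standard deviation, log2 units) against level (normalised estimated counts, log axis) of the histone transcripts, KD and WT together. Blue points are replication-dependent and orange points variant, and the grey lines are the median and the 90th percentile of all protein-coding transcripts of like level. Most histone transcripts lie around the median line, and *H2afj* at 3.38 and *Hist1h2be* at 3.25 lie farthest above the upper line.

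Promoter sequences from RefSeq (GRCm38.p6), 300 bases around each start, could be matched for 57 of the 64 genes, partly through newer symbols. Of 49 replication-dependent promoters, CCAAT was present on either strand in 42 (85.7%), TATAAA in 27 (55.1%) and the octamer ATTTGCAT in 11 (22.4%). Among all 32851 promoters of the table the shares were 37.4%, 13.6% and 1.74%. The octamer is known from H2B promoters, where OCT1 binds it. It was found in 6 of 14 H2B and 5 of 12 H2A promoters and in none of the replication-dependent H1, H3 and H4 promoters. Read in the direction of transcription, all 6 in H2B promoters lay on the plus strand and all 5 in H2A promoters on the minus strand. The 11 promoters hold 10 different sites, since *Hist1h2bg* and *Hist1h2ae* share 1 that is counted in both classes and whose opposite strands follow from their opposite directions. Of the replication-dependent promoters, CCAAT was in every one of H1, H2A, H2B and H3 but in 3 of 10 of H4. Of 9 variant promoters, CCAAT was in 6, TATAAA in 1 and the octamer in 1, that of *H3f3b*, on the minus strand. A match of letters is not evidence that a factor was bound.

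The highest H2B gene per kilobase, *Hist1h2bg*, shares 279 bases of promoter with *Hist1h2ae*, which is transcribed the other way. Such overlap was found for 4 pairs of replication-dependent genes, each of them an H2A gene with an H2B gene. The octamer of this pair is printed in capitals beside that of *Hist1h2bb*, in the direction in which it reads ATTTGCAT.

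*Hist1h2bg* and *Hist1h2ae*, within chr13:23571171-23571449: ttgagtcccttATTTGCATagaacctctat
*Hist1h2bb*, within chr13:23746484-23746783, plus strand: ttgagtctcttATTTGCATaaagcctttga

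The shared promoter lies before transcripts of unequal level, since *Hist1h2bg* was at 227 per kilobase and *Hist1h2ae* at 28.8. *Hist1h2bb* was at 34.3 per kilobase. *Hist1h2ae*, *Hist1h2bb* and the genes with the less frequent stem-loops were chosen for printing after their values were seen.

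A list of genes whose products end or bind histone mRNA, drive its transcription, add poly(A) tails or carry histones was set beside the family, and it also held *Setd2*. Of 46 listed names, 44 had transcripts in the table and all 44 reached 100 normalised estimated counts summed per gene, as did 73.8% of all protein-coding genes in the table. The other names were Symplk, a misspelling of *Sympk* in the list, and Ars2, an older name of *Srrt*. The level of *Sympk* was therefore not looked up. The median of the 44 was 1096 per kilobase, or 1110 without *Setd2*, against 375 for all protein-coding genes, and the lowest in counts was *Zfp473* at 31.6 per kilobase. The highest in counts were *Pabpc1*, the cytoplasmic poly(A)-binding protein, at 40055 per kilobase, *Srrt*, a cap-complex protein, at 4499, *Nasp*, an H3-H4 chaperone, at 5620, *Hjurp*, the chaperone of centromeric H3, at 2706, and *Papola*, a poly(A) polymerase, at 3290. *Slbp*, whose protein binds the histone stem-loop, was at 2291 per kilobase. *Npat*, which activates replication-dependent histone transcription in S phase, was at 354 per kilobase. The highest replication-dependent transcript, at 343 per kilobase, was below the median of 375 for all protein-coding genes. Most protein-coding genes thus exceed it, so exceeding it is not particular to the list. In all, 40 of the 44, summed per gene, were higher per kilobase than every replication-dependent transcript. The others were *Casp8ap2* at 326, *Setd2* at 221, *Lsm11* at 124 and *Zfp473* at 31.6 per kilobase, of which *Casp8ap2*, *Lsm11* and *Zfp473* were named after their values were seen.

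*Setd2*, the knocked-down gene, had a level of 1844 normalised estimated counts and 221 per kilobase as the authors' mean of all 4 libraries. Its spread over them was 1.15, larger than in 99.2% of protein-coding transcripts at 100 counts or more. Its level in each library was not used here, so the labels were not checked against it. The fibroblast label was checked with marker genes. All 8 fibroblast markers reached 100 counts, as did 73.8% of all protein-coding genes. Their summed level was 1157570, and the lowest per kilobase was *Pdgfrb* at 570. Among 16 markers of epithelial, leukocyte, endothelial, skeletal muscle and neural cells, *Cd68* was highest at 287 per kilobase and *Lyz2* followed at 266. The remaining ones were at 48.3 per kilobase or less, and *Epcam*, *Krt18*, *Myod1*, *Myog* and *Sox2* had no row in the table used here. Of the 16, *Cd68*, *Lyz2*, *Des* and *Cdh1* also reached 100 counts, at 343, 351, 146 and 113. The summed levels were 724 counts for leukocyte, 146 for skeletal muscle, 135 for epithelial, 67.4 for endothelial and 10.2 for neural markers. Their part in the histone levels was not tested.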

How the data were processed

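Poly(A) RNA of 2 KD and 2 WT libraries was grouped by the condition in the labels. Adapters were removed by the authors with BBDuk, reads were quantified with Kallisto and the groups were compared with Sleuth; the submitters' processing notes also name bcl2fastq 2.17 and HISAT2. The transcriptome used as index and any filter on low counts are not given in the sources used here. The values used are natural log means of all 4 libraries, which the authors took from normalised estimated counts plus 0.5 and deposited. The base of the log was checked on the read-assignment variance, which was 1.10 times the counting expectation at the median of 14963 genes with 1 tested transcript. The level is the exponential of the mean, minus 0.5, which is close to a geometric mean. The deposited variance over the libraries and the deposited read-assignment variance are on the same scale. The other 15 value columns hold the authors' own comparison (effects, their errors, statistics, p-values, q-values and model variances) and were not used, nor was the gene table, which holds p-values, q-values and sums of the means.

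The planned test of KD against WT needed a value for each library, so no test was made and no interval is given. Depth is unknown. Replicates are separate samples in the labels, and p-values play no part here. Lengths, stop codons, sequences and positions came from GENCODE M21 (GRCm38), which held 98.6% of the 34200 transcripts in the same version and all 75 histone transcripts, and 26080 of 26536 protein-coding rows had a length. Words of 31 bases were compared with the basic transcripts of all other genes on both strands. Promoters came from RefSeq, matched by symbol or synonym. Motif, word and level functions were tested on simulated data. Python 3.11.15, numpy 2.4.6, pandas 2.3.3 and matplotlib 3.10.9 were used.

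The members and lists were chosen with earlier results of these data known. Named genes were every variant gene, the 3 highest and the lowest transcript in counts of each replication-dependent class, the 3 transcripts with the highest read-assignment ratio, the 3 with the largest spread, each replication-dependent gene with 2 or more transcripts, the 5 highest genes of the 3′ end and supply list in counts, and *Slbp*, *Npat* and *Setd2*. Other floors, length corrections, motif windows and limits were tried as alternatives.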

Additional observations from a re-analysis of the deposited data

How the results depend on the processing

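The number of replication-dependent transcripts at 100 normalised estimated counts, 8, became 13 with a floor of 50 and 2 with a floor of 200. The share of the summed histone level in replication-dependent genes, 1.76%, was 2.63% per kilobase, 3.23% per kilobase after 200 bases were taken off each length, and 0.958% over transcripts at 100 counts or more; without transcripts whose read-assignment variance was over 10 times the counting expectation it was 1.78%. The median of transcripts without a stem-loop was 14.5 counts and 31.8 per kilobase, and that of transcripts with a stem-loop 17.2 and 24.4, so their order turned with the division by length. Counts of stem-loops (38 to 40), poly(A) signals (10 to 15) and transcripts above the read-assignment limit (14 to 29) stayed within 1.5 times the main value under the alternatives tried. No paired analysis was possible because no value of a single library was used and no test was made; leaving out each replicate and the replicate block were not run for the same reason. Depth is unknown, and annotated lengths may not be those of the RNA molecules, which bears on each value per kilobase.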
